A study of Mus musculus with 10 samples.

Results

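The genes described here are the 136 voltage-gated ion channel genes and related subunits among the 31053 genes counted, measured in single cells of the embryonic mouse cortex with and without Gatad2b. Members were chosen by symbol alone, through name patterns for the Kcn, Scn, Hcn, Cacna1, Cacna2d, Cacnb and Cacng families, so no measured value enters that rule. The patterns also take in potassium channels that are not gated by voltage. Of the 136 members, 64 were grouped as pores of voltage-gated channels. These are 10 sodium channel alpha subunits, 10 calcium channel alpha1 subunits, 4 HCN channels and 40 Kv alpha subunits. A further 31 were grouped as auxiliary subunits and 41 as other potassium channels, namely calcium- and sodium-activated, inwardly rectifying and two-pore channels. The grouping is by family name. Silent Kv subunits thus count as pores and BK channel beta subunits as potassium channels. AMPA receptor regulatory proteins of the Cav gamma family count as auxiliary subunits.

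Voltage-gated channels open and close with membrane potential and let a neuron fire and shape action potentials. Sodium channels carry the upstroke, Kv channels repolarise the membrane, calcium channels couple voltage to calcium entry, and HCN channels carry an inward current on hyperpolarisation. Inwardly rectifying and two-pore potassium channels set the resting potential, and auxiliary subunits change the trafficking and gating of the pores. Many of these genes are switched on while cortical neurons migrate and mature. Gatad2b is a subunit of NuRD, a chromatin remodelling and histone deacetylase complex that also contains methyl-CpG binding domain proteins.

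The samples were E16.5 cortices from mice of the C57BL/6N-A tm1Brd background, papain-dissociated and profiled with 3′ single-cell libraries, 1 library per embryo: Gatad2b+/+ (WT, n = 3), Gatad2b stop/+ (Het, n = 4) and Gatad2b stop/stop (KO, n = 3). The stop allele is a gene-trap cassette in the intron between the first 2 coding exons and is present in every cell of the animal from conception. KO animals die around birth, so the comparison ends at an embryonic stage. Reads from the 3′ end of Gatad2b lie downstream of the cassette, and Gatad2b was 139, 131 and 133 CPM (UMI counts scaled to a common library size by TMM) in the WT embryos, 89.8 to 95.6 in the Het embryos and 50.9, 52.8 and 57.3 in the KO embryos.

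After cells under 1000 UMIs or over 10% mitochondrial UMIs were removed, 65779 of 80071 barcodes remained, 5147 to 8103 per embryo, with about 82873000 to 123740000 UMIs per embryo. Any pair of libraries shared 4 to 19 barcodes, at most 0.325% of the smaller library. Cells were clustered without the channel genes and clusters were named from marker genes: 19205 cells were layer II-IV-like, 12396 interneuron-like, 9659 layer V-VI-like, 6782 striatal inhibitory-like, 3623 mitotic progenitor-like, 2786 subventricular zone (SVZ)-like, 1543 radial glia-like and 811 layer I-like. A further 6177 cells stayed unnamed, and the rest were erythroid-, endothelial-, mural and fibroblast- and microglia-like. The cortical labels thus covered striatal-like cells too, and the choroid plexus gene Ttr was at 1760 CPM in WT replicate 1 and 107 in WT replicate 2. The library names carry 2 prefixes whose meaning is not stated. All 3 WT embryos and Het replicate 4 have one prefix and all 3 KO embryos and Het replicates 1 to 3 have the other, so that prefix and genotype cannot be told apart between WT and KO. The KO results over all cells and in the layer II-IV-like, layer V-VI-like and interneuron-like classes are therefore set beside the comparison of the 3 KO embryos with the 3 Het embryos of their own prefix.

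The promoters of a few members whose levels moved in opposite directions are shown first, because the genes compared below differ in how rich in CpG their start regions are. RefSeq promoters (GRCm38.p6) matched 99 of the 136 members. Each line gives the 250 bases upstream of the annotated start, 5′ to 3′ on the gene's strand, with GC boxes (GGGCGG, or CCGCCC on the other strand) in capitals. Kcnj2 lies at chr11:111065914-111066163 (+ strand, 14 CpG) and Scn9a at chr2:66634963-66635212 (− strand, 5 CpG), both genes that were lower in KO. Kcnip1 lies at chr11:33993194-33993443 (− strand, 6 CpG) and Kcnn1 at chr8:70863259-70863508 (− strand, 10 CpG), both genes that were higher in KO.
Kcnj2: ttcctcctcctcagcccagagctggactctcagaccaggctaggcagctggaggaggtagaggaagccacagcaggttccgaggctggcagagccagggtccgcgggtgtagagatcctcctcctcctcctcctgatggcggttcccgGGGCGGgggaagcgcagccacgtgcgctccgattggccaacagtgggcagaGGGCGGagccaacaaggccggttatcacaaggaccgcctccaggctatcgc
Scn9a: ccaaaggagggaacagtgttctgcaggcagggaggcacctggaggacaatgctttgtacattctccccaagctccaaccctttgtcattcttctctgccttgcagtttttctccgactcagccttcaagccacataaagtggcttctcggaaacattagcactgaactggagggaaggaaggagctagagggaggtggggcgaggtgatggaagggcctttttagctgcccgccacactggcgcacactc
Kcnip1: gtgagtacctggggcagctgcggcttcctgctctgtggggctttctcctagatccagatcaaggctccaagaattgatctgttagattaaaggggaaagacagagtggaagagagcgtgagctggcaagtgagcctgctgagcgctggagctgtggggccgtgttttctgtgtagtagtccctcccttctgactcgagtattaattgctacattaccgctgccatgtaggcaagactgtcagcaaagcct
Kcnn1: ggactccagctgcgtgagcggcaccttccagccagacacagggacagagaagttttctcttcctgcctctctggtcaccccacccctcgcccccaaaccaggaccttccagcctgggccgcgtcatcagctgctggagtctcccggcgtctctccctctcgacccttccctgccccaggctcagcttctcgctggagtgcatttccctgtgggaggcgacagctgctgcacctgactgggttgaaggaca
Only the Kcnj2 promoter of these held a GC box, and it held 2. A GC box was found in 33.0% of all 27025 promoters and in 45.5% of the 99 member promoters. It was found in 12 of 34 promoters of members lower in KO (35.3%), in 2 of 7 of those higher (28.6%) and in 26 of 43 of those not called (60.5%). The median number of CpG was 8 for members lower in KO, 10 for those higher, 12 for those not called and 6 over all promoters.

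Each channel class had its own cell types in WT cortex, on the scale of CPM within a class and over the classes with at least 20 cells in every embryo, which leaves out the endothelial-like cells. Kcnj8, a pore of ATP-sensitive potassium channels, was at 570 CPM in mural and fibroblast-like cells against 0.627 in layer V-VI-like cells, the next of these classes, and Kcnj10, a glial inward rectifier, was at 41.2 in radial glia-like cells against 5.2. Cacna2d2, an alpha2delta subunit, was at 697 in layer I-like cells against 68.2 in interneuron-like cells. The layer V-VI-like cells had the highest levels of Kcnk1, a two-pore channel (54.4 against 12.9), and of Cacna1e, the R-type calcium pore (126 against 43.2). Among members with at least 20 CPM in some class, the highest level fell in layer I-like cells for 20, in layer V-VI-like for 11, in interneuron-like for 8 and in striatal inhibitory-like for 7.

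Over all cells, the channel genes that were called in KO against WT were mostly lower, and 63 of those tested were not called. Of the 120 members with enough counts to be tested, 57 were called (edgeR quasi-likelihood test, adjusted p under 0.05 and absolute log2 fold change above 0.25), 46 lower and 11 higher. Of all 17647 genes tested, 24.5% were called, 12% higher and 12.5% lower. The median log2 fold change was −0.23 over the members and −0.01 over all genes. Against the Het embryos of one prefix the median over the members was −0.08. Summed over the 136 members, the level was 2005 ± 24 CPM in WT (SD, n = 3), 1869 ± 73 in Het (n = 4) and 1745 ± 29 in KO (n = 3). The Het embryos split by prefix: Het replicate 4, of the prefix of WT, was at 1966. Het replicates 1 to 3, of the prefix of KO, were at 1792.5, 1875 and 1842. So the Het mean does not give a step by genotype apart from prefix. In such sums fewer cells of a type and less RNA per cell cannot be told apart. The summed level of 7 SVZ markers was 251–257 CPM in WT and 403–434 in KO, while that of 11 interneuron markers was 474–638 in WT and 346–417 in KO. Their part in the channel result was not tested over all cells, and values within classes are given below.

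Among pores of voltage-gated channels, 25 of 56 tested were lower and 3 higher. Auxiliary subunits were lower in 10 and higher in 3 of 27, and the other potassium channels were lower in 11 and higher in 5 of 37. By family, 5 of 7 sodium channel alpha subunits, 5 of 8 calcium channel alpha1 subunits, 7 of 12 calcium- and sodium-activated channels and 17 of 37 Kv alpha subunits were called, and 4 of 14 inward rectifiers, beside the 24.5% of all genes. No Cav beta subunit was called among 4. The sum over sodium channel alpha subunits was 236 ± 9 CPM in WT, 217 ± 5 in Het and 180 ± 8 in KO.

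**Figure D1:**
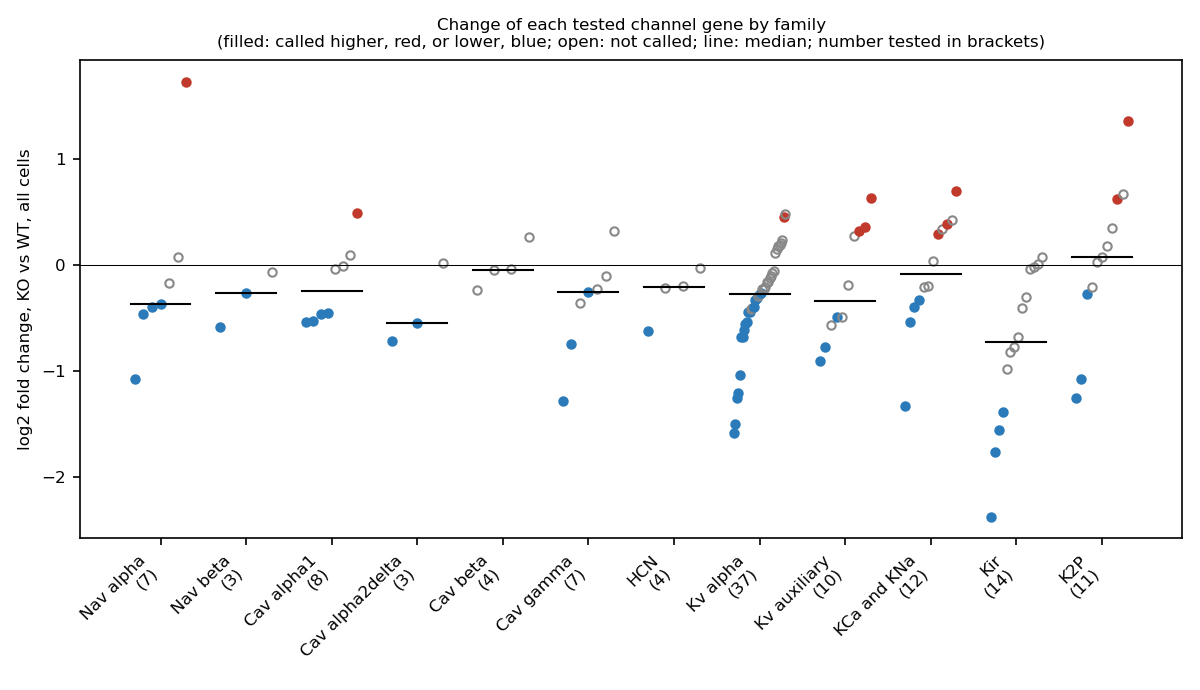
Log2 fold change of KO against WT over all cells (y axis) for each of the 120 tested members, grouped by family (x axis, number tested in brackets). Filled points were called, open points were not, and the horizontal line is the family's median. Most filled points lie below 0, and the lowest, at −2.38, is the inward rectifier Kcnj2.

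Kcnj2, which encodes the inward rectifier Kir2.1, had the most negative log2 fold change among the members called over all cells. Its level was 5.69, 4.78 and 4.00 CPM in the WT embryos, 2.33, 2.97, 3.02 and 1.77 in the Het embryos and 0.79, 1.06 and 0.95 in the KO embryos. The 3 genotypes did not overlap. The log2 fold change was −2.38 ± 0.22 (SE, adjusted p = 2.8e-05 by edgeR) in KO and −1.58 ± 0.16 against the Het embryos of one prefix. Kcnk1 was 16.49, 20.5 and 22.1 in WT and 10.2, 8.53 and 9.19 in KO, and fell by 1.08 on the log2 scale.

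Of the 5 sodium channel pore genes clustered on chromosome 2 (GRCm38, GENCODE vM21), 3 fell over all cells. Scn3a, the pore that dominates before birth (chr2:65457118-65567627, − strand), was at 103 ± 2.6 CPM in WT and at 78.0 ± 5.1 in KO, a log2 fold change of −0.40. Scn2a (chr2:65620771-65767447, + strand) changed by −0.37 and Scn9a (chr2:66480080-66634962, − strand), known from sensory neurons, by −1.08. Scn1a (chr2:66270778-66440840, − strand), which rises after birth in inhibitory neurons, was not called (log2 fold change −0.18, adjusted p = 0.15 by edgeR), and Scn7a had too few counts to be tested. Scn8a, on chromosome 15, fell by 0.47. Of the beta subunits, Scn2b (−0.27) fell, and Scn3b was not called (−0.07).

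Among calcium channel genes the pores Cacna1c (−0.53), Cacna1d (−0.47), Cacna1e (−0.54) and Cacna1i (−0.46) fell, and the T-type pore Cacna1g rose by 0.49. Cacna1a (0.09), Cacna1b (−0.04) and Cacna1h (−0.01) were not called. The alpha2delta subunits Cacna2d2 (−0.72) and Cacna2d3 (−0.54) fell, while Cacna2d1 (0.02) was not called. The HCN channels Hcn2 (−0.22), Hcn3 (−0.20) and Hcn4 (−0.03) were not called. The Kv channels Kcna1 (−1.04), Kcnc1 (−0.33), Kcnd2 (−0.62), Kcnd3 (−0.39) and Kcnq5 (−0.31) fell, and the M-current pore Kcnq3 (0.15) and the Kv pore Kcna2 (0.11) were not called.

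The members that rose included all 3 small-conductance calcium-activated channels of the SK family. Kcnn1 was 3.91, 4.02 and 4.21 CPM in WT, 4.54 to 4.76 in Het and 6.12, 7.02 and 6.56 in KO, so no KO embryo overlapped WT or Het. Its log2 fold change was 0.70 ± 0.08, and Kcnn2 and Kcnn3 rose by 0.29 and 0.39. The two-pore channel Kcnk12 rose by 0.62, the Kv modifier Kcng1 by 0.45, and the Kv beta subunit Kcnab3 by 0.63. The calcium sensors Kcnip3 and Kcnip1, which bind Kv4 channels, rose by 0.35 and 0.32, while Kcnip4 (−0.91) and Kcnip2 (−0.78) of the same family fell. Kcnip1 overlaps the same-strand gene 4930469K13Rik, so its counts are uncertain. Kcnk5 and Scn11a also passed, at WT means of 0.15 and 0.06 CPM.

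In the comparison of KO with the Het embryos of one prefix, 23 of 117 members tested were called, 16 lower and 7 higher, while 6.14% of all genes were called, 2.92% higher and 3.22% lower. Kcnmb2, a BK channel beta subunit, fell by 0.90 in this comparison and by 1.33 against WT, and Cacna2d2 by 0.66 in the first and 0.72 in the second. Scn3a fell by 0.33 and Scn2a by 0.26 within the prefix. Kcnn1 rose by 0.51, Kcng1 by 0.44 and Kcnip1 by 0.42. Of the 57 members called against WT, 21 were also called within the prefix. Of those named above, Cacna1c, Cacna1d, Cacna1i, Cacna2d3, Scn8a, Scn2b, Scn11a, Kcnk5, Kcnip3 and Kcnab3 were not, nor were Cacna1e (−0.14), Kcna1 (−0.25), Kcnc1 (−0.06), Kcnd3 (−0.17), Kcnq5 (−0.20), Kcnip4 (−0.41) and Kcnk12 (0.19). Kcnq5 and Cacng7 were called against WT in 5 of the 10 fits that left out 1 embryo. Kcna1, Kcnn2, Kcnip1 and Scn2b were called in 6. Leaving out Het replicate 2, Het replicate 3 or KO replicate 2 lowered the number called within the prefix to 14, 13 and 15. The shares over all genes in these fits are not given here.

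Cacng7, a transmembrane AMPA receptor regulatory protein of the Cav gamma family, separated by prefix and not by genotype. It was 28.3, 25.2 and 29.2 CPM in WT and 32.9 in Het replicate 4, against 10.1, 9.37 and 11.6 in Het replicates 1 to 3 and 10.9, 13.03 and 10.1 in KO. Its log2 fold change of −1.28 against WT became 0.13 against the Het embryos of one prefix, and 0.38 with prefix as a term of the model. Cacna1e over all cells had a like layout, 44.6 to 53.0 CPM in WT and 51.6 in Het replicate 4 against 35.9 to 39.9 in Het replicates 1 to 3 and 30.1 to 39.3 in KO.

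**Figure D2:**
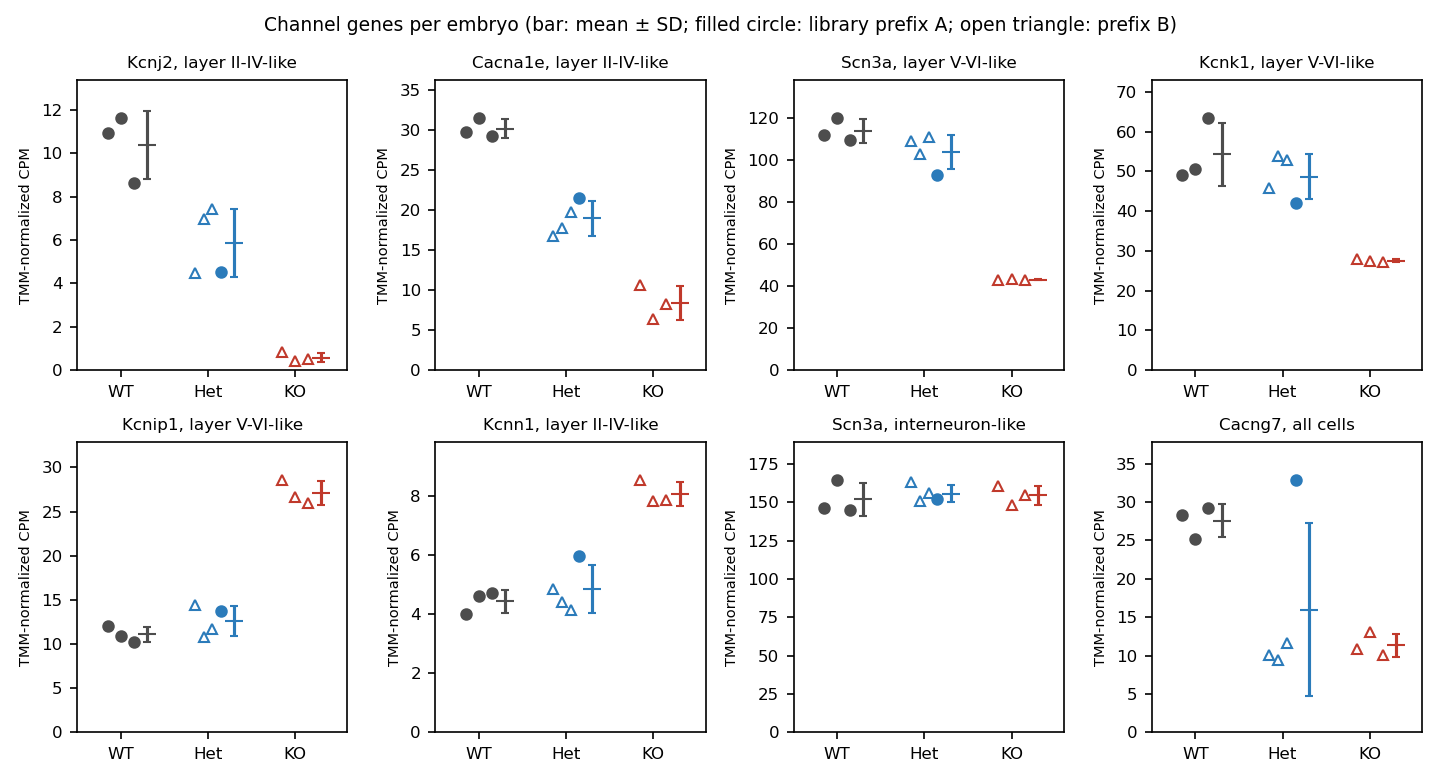
TMM-normalized CPM (y axis, from 0) of selected channel genes in each embryo, by genotype (x axis), with the mean and SD beside the points. Filled circles are libraries of the prefix shared by WT and Het replicate 4, and open triangles those of the prefix shared by KO and Het replicates 1 to 3. In layer II-IV-like cells Kcnj2 and Cacna1e step down from WT to Het to KO, Scn3a is lower in layer V-VI-like and not in interneuron-like KO cells, and Cacng7 separates by prefix.

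Between Het and WT embryos, 4 of the 120 members were called, all lower, and 2.98% of all genes were called, 1.58% higher and 1.4% lower. They were Kcnj2 (log2 fold change −0.94), the inward rectifier Kcnj12 (−0.81), the Kv channel Kcnh1 (−0.56) and the L-type pore Cacna1c (−0.29). Cacna1c was 30.0, 30.2 and 30.8 CPM in WT, 23.6 to 26.2 in the Het embryos, and between 20.8 and 21.2 in the KO embryos. Without Het replicate 4, the Het embryo that shares the prefix of WT, 17 members were called. In that fit prefix and genotype cannot be told apart between Het and WT. Without WT replicate 1, WT replicate 2, Het replicate 1 or Het replicate 3 there were 2, 1, 1 and 2. Shares over all genes in these fits are not given here, so the counts are not read as particular to channel genes.

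In layer II-IV-like cells, 57 of 96 members tested were called in KO, 45 lower and 12 higher, while 30.3% of all genes were called, 14.8% higher and 15.5% lower. Against the Het embryos of one prefix 34 of 91 were called, 24 lower and 10 higher, with 12.7% over all genes. The median log2 fold change of the members was −0.29 against WT and −0.12 within the prefix, and that of all genes was 0.00 in both. The 3 clusters of this class were not equally filled: cluster 0 held 52.2–53.9% of the class in WT and 32.5–40.5% in KO, and cluster 1 held 31.5–38.5% in WT and 49.6–55.7% in KO. Within the class, the summed level of layer V-VI markers was 277–322 CPM in WT and 443–489 in KO, and that of interneuron markers was 110–133 in WT and 50.7–59.2 in KO with 8 of 11 lower.

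Kcnj2 was 10.9, 11.6 and 8.63 CPM among layer II-IV-like cells in WT, 4.49, 6.98, 7.42 and 4.51 in Het and 0.82, 0.40 and 0.53 in KO. The genotypes did not overlap, and Het replicate 4, of the same prefix as WT, lay below every WT embryo. The log2 fold change was −4.13 ± 0.27 against WT and −3.40 ± 0.25 within the prefix. Inside single clusters of the class, in cluster 0 Kcnj2 was 14.2, 14.4 and 11.5 CPM in WT and 0.97, 0.62 and 0.80 in KO, and in cluster 12 it was 16.545 to 20.965 in WT and 0.87 to 2.54 in KO. In cluster 1, the one with the larger share of the class in KO, Kcnj2 had 18 UMIs over all embryos and was 0.24, 0.31 and 0.58 CPM in WT and 0.07, 0.00 and 0.07 in KO.

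Cacna1e was 29.8, 31.6 and 29.3 CPM in WT, 16.8, 17.7, 19.8 and 21.6 in Het and 10.7, 6.39 and 8.22 in KO in layer II-IV-like cells. All Het embryos lay between the other genotypes, Het replicate 4 included. Its log2 fold change was −1.84 ± 0.13 against WT and −1.09 ± 0.13 within the prefix, and in cluster 0 alone Cacna1e went from 39.9, 42.2 and 40.3 CPM in WT to 16.4, 9.69 and 13.3 in KO. In cluster 1 it was 10.4, 9.01 and 10.1 CPM in WT and 3.03, 1.39 and 3.08 in KO. The alpha2delta subunits Cacna2d2 (−1.83 against WT, −1.22 within the prefix) and Cacna2d3 (−1.66 and −1.12) and the two-pore channels Kcnk1 (−1.85 and −1.37) and Kcnk9 (−1.54 and −1.28) fell in both comparisons. Cacna1c (−0.66), Cacna1d (−0.74), Scn9a (−0.94), Scn2a (−0.40) and Scn8a (−0.46) also fell against WT. Of 5 sodium channel pores tested in this class, 3 were called against WT and 2 within the prefix, all lower. Kcnn1 was 3.99, 4.61 and 4.70 CPM in WT, 4.13 to 5.97 in Het and 8.53, 7.82 and 7.85 in KO and rose by 0.87 against WT and 0.85 within the prefix. Kcnab3 (0.77), Kcnip1 (0.61), Kcng1 (0.60), Kcnn3 (0.55), Kcna2 (0.39), Kcnq3 (0.35) and Cacna1a (0.30) rose against WT as well.

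Het layer II-IV-like cells had 11 of 96 members called, all lower, with 6.74% of all genes called. Among them were Kcnj6 (−1.30), Kcnj2 (−0.85), Cacna1e (−0.67), Cacna2d2 (−0.64), Cacna2d3 (−0.57), Kcnk1 (−0.51), Kcnmb2 (−0.51), Kcnma1 (−0.33), Cacna1c (−0.30) and Kcnc1 (−0.27). Kcnj6 is an inward rectifier gated by G proteins, and Kcnma1 is the pore of the BK channel. Het replicates 1 to 3 differ from WT in library prefix too, so only Het replicate 4 separates prefix from genotype here. Kcnj2 and Cacna1e in that embryo lay below every WT embryo, as given above. Over all cells, Kcnma1 averaged 35.4 CPM in WT and 28.8 in Het replicates 1 to 3, with 33.8 in Het replicate 4. Kcnc1 was at 41.6, 34.4 and 39.0 in the same order. The part of prefix in these calls was not tested.

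In layer V-VI-like cells, 48 of 97 members tested were called in KO, 32 lower and 16 higher, while 23.2% of all genes were called, 11.4% higher and 11.8% lower. Against the Het embryos of one prefix 30 of 92 were called, 17 lower and 13 higher, with 10.3% over all genes. The median log2 fold change of the members was −0.13 against WT and −0.0007 within the prefix. All 5 sodium channel pores tested there were called lower against WT, and 4 of 5 were called lower within the prefix. Within the class the summed level of layer V-VI markers was 1667–1851 CPM in WT and 2259–2505 in KO, and that of interneuron markers was 206–259 in WT and 103–147 in KO with 7 of 11 lower.

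Scn3a was 112, 120 and 109 CPM among layer V-VI-like cells in WT, 109, 103, 111 and 93.0 in Het and 42.7, 43.3 and 43.0 in KO. The KO embryos lay far below both other groups, and the 4 Het embryos lay at or under the WT range. The log2 fold change was −1.40 ± 0.07 against WT (adjusted p = 6.3e-09 by edgeR) and −1.32 ± 0.05 within the prefix. All 3 clusters of the class showed it: in cluster 5 Scn3a went from 140, 153 and 152 CPM in WT to 45.3, 48.5 and 45.5 in KO, in cluster 6 from 114–118 to 30.8–34.8, and in cluster 7 from 88.8–99.3 to 45.5–51.3. Scn9a was 12.4, 13.8 and 9.25 in WT and 3.30, 4.17 and 3.66 in KO (−1.70). Against WT, Scn1a fell by 0.88, Scn8a by 0.42 and Scn2a by 0.30.

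In the same cells Kcnk1 was 49.0, 50.7 and 63.5 CPM in WT, 42.01 to 53.94 in Het and 27.9, 27.3 and 27.2 in KO, a log2 fold change of −0.98 against WT and −0.89 within the prefix. Kcnd2, a pore of the A-type current, fell by 0.99 against WT and 0.65 within the prefix. Cacna2d2 (−1.52), Kcnip4 (−1.31) and the mechanosensitive two-pore channel Kcnk2 (−0.68) fell against WT. Kcnip1 rose from 12.05, 10.96 and 10.28 CPM in WT to 28.6, 26.7 and 26.0 in KO, with 10.8 to 14.4 in Het, so that KO embryos overlapped neither group. Its log2 fold change was 1.29 ± 0.10 against WT and 1.14 ± 0.09 within the prefix. Cacna1g went from 9.09, 9.29 and 10.1 to 18.8, 19.7 and 19.2 (1.02, and 0.55 within the prefix). Against WT, Cacnb2 rose by 1.01, the sodium-activated channel Kcnt2 by 0.93, Kcnk12 by 0.89 and Cacna2d1 by 0.44. Cacna1e was not called (−0.18).

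The layer II-IV-like and layer V-VI-like cells came from the same embryos, and the change was compared between these classes within each embryo (limma). It differed for 30 of 92 members, with 16.2% of all genes. For 7 of them the change was more negative in layer V-VI-like cells: Scn3a (difference of log2 fold changes −1.21 ± 0.06), Scn1a (−0.996), Scn9a (−0.71), Kcnk2 (−0.71), Kcnd2 (−0.34), Cacna1a (−0.32) and Kcnk10 (−0.31). For 23 it was more positive there, among them Cacna1i (1.83), Cacna1e (1.71), Cacna2d3 (1.28), Kcnk3 (1.14), Kcnk1 (0.85), Cacna1g (0.79) and Kcnip1 (0.69). With the library prefix as a term of the model 13 of the members passed, beside 5.29% of all genes. This test was added after the class values had been seen.

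Interneuron-like cells had 10 of 98 members called in KO, 7 lower and 3 higher, with 7.65% of all genes called, 3.58% higher and 4.07% lower. Within the prefix 2 of 93 were called, Kcns3 and Kcnmb2, with 0.405% over all genes. Kcns3, a silent Kv subunit, was 5.17, 3.73 and 5.13 CPM in WT, 2.16 to 4.31 in Het and 0.63, 0.51 and 1.21 in KO, and fell by 2.47 against WT and 2.24 within the prefix. Kcnmb2 was 27.1, 33.6 and 38.4 in WT, 24.2 to 29.7 in Het and 17.0, 14.5 and 12.7 in KO. Kcnc2, a Kv3 channel of fast-spiking cells, was 33.6, 37.0 and 38.0 in WT and 18.9, 16.2 and 22.7 in KO, a fall of 0.90 against WT that was not called within the prefix (−0.68). Scn8a (−0.35), Cacna1c (−0.48) and Cacng7 (−1.41) were also lower, and Kcnn1 (0.85), Kcnip3 (0.59) and Cacna1b (0.26) were higher. A cluster of low depth, cluster 11, held 18.8–22.5% of this class in WT and 6.7–17.6% in KO, and 10 members were called without it. Without WT replicate 1, WT replicate 3, KO replicate 2 or KO replicate 3 the number called was 5, 4, 3 and 4. The shares over all genes without that cluster or these embryos are not given here.

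Scn3a in interneuron-like cells was 146, 165 and 145 CPM in WT, 151 to 164 in Het and 161, 148 and 155 in KO. The groups overlapped and the log2 fold change was 0.02 ± 0.06. Between layer II-IV-like and interneuron-like cells the change of 16 of 92 members differed (limma), with 7.31% over all genes, and with the library prefix as a term 8 passed, beside 2.26% of all genes. It was more negative in layer II-IV-like cells for 13, among them Cacna2d3 (difference −2.02), Cacna1i (−1.88), Cacna1e (−1.43), Kcnk1 (−1.26) and Cacna2d2 (−1.22), and more positive for Kcnip1 (0.92), Kcnc2 (0.75) and Kcnq3 (0.50).

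**Figure D3:**
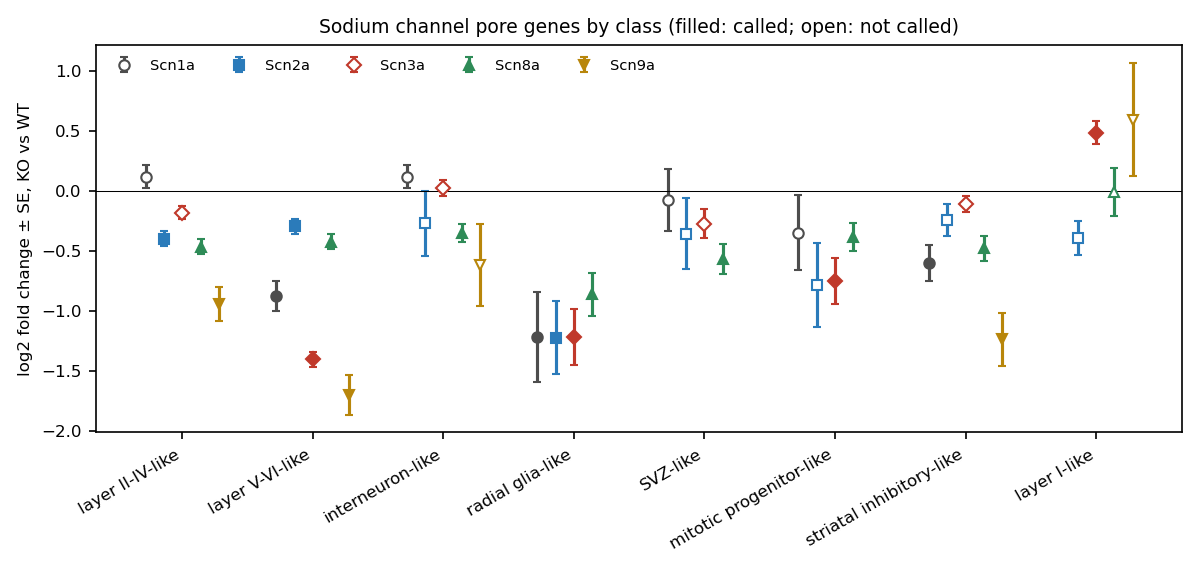
Log2 fold change ± SE of KO against WT (y axis) for 5 sodium channel pore genes in 8 cell classes (x axis). Filled symbols were called, open ones were not, and genes with too few counts in a class are left out. Scn3a lies at −1.40 in layer V-VI-like cells, near 0 in interneuron-like cells and at 0.49 in layer I-like cells, while Scn8a was lower in each class shown but layer I-like cells. KO and WT differ in library prefix too, and the classes come from the same embryos.

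The other classes were compared only with WT, so prefix and genotype cannot be told apart in them. In radial glia-like cells 26 of 52 members were called, 25 lower and 1 higher, with 19.8% over all genes. Kcnd3 was 34.4, 35.5 and 37.6 CPM in WT and 13.8, 17.6 and 13.6 in KO (−1.29), and Kcnk2 was 142, 149 and 172 in WT and 91.8, 65.3 and 87.1 in KO (−0.90). Scn3a (−1.22), Kcnip1 (−1.38) and Kcnma1 (−1.83) fell, and Kcnh7, an ERG-type channel, rose by 0.42. Kcnip1 thus fell here and rose in both layer classes. The 5 oligodendrocyte precursor markers were also all lower in these cells, with a sum of 522–695 CPM in WT and 255–274 in KO, and their part in the result was not tested. The class is a single cluster whose marker score was higher for the oligodendrocyte precursor list (4.05) than for the radial glia list (2.80), and it took its name from radial glia markers, of which 4 were among its 10 leading genes, against 0 of the precursor markers.

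Striatal inhibitory-like cells had 17 of 76 members called, 16 lower and 1 higher, with 16.1% over all genes. Kcnn1 rose there by 0.86, from 9.54, 9.30 and 10.0 CPM to 13.9, 19.7 and 18.5, and Scn9a (−1.24), Kcnma1 (−1.02) and Cacna1e (−0.96) fell. Mitotic progenitor-like cells had 14 of 66 called, all lower, with 9.33% over all genes, Kcnk1 (−2.60) and Kcnd3 (−1.16) among them. Most cells of that class were in cluster 14 in KO embryos, and cluster 16 held the most in WT embryos. SVZ-like cells had 11 of 56 called, 7 lower and 4 higher, with 15.2% over all genes. There Kcnd3 (−1.10) and Kcnk2 (−0.62) fell and Cacna1a (0.50), Kcnip3 (0.49) and Kcnn2 (0.45) rose.

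Layer I-like cells had 8 of 64 members called, with 5.46% over all genes. Scn3a was 83.9, 102 and 89.9 CPM in WT and 136, 131 and 120 in KO and rose by 0.49, the opposite of its direction in layer V-VI-like cells. Cacng4 rose by 0.35, while Kcnma1 (−1.22), the Kv4 partner Kcnip2 (−0.98), Kcnb2 (−0.52) and Cacna2d2 (−0.33) fell. Scn8a was called against WT in 7 of the 8 classes described here, lower in each, and in layer I-like cells it was at 0.00. The classes come from the same embryos, so these calls share 1 contrast in which prefix and genotype are mixed. Over all cells Scn8a averaged 33.5 CPM in WT, 28.0 in Het replicates 1 to 3 and 24.2 in KO, with 32.0 in Het replicate 4. It was not called within the prefix (−0.21) and was called with prefix as a term of the model (−0.27).

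**Figure D4:**
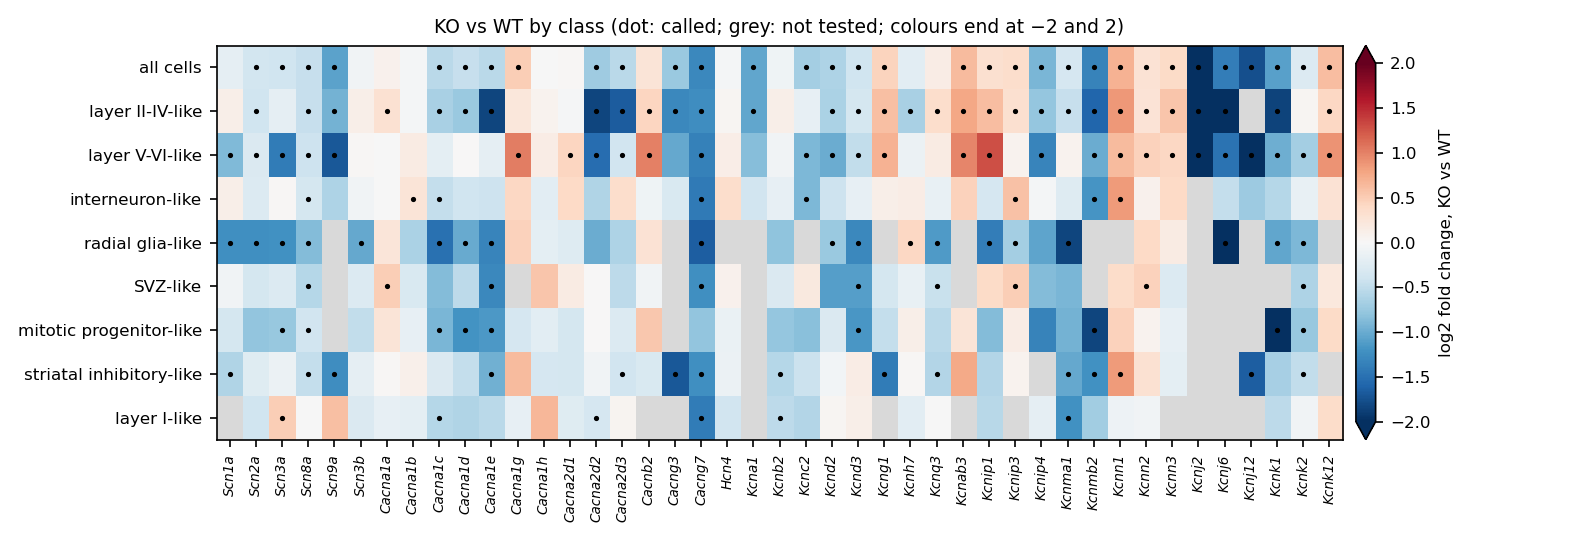
Log2 fold change of KO against WT (colour, ending at −2 and 2) for selected channel genes (columns) over all cells and in 8 cell classes (rows). A dot marks a called change and grey a gene not tested in that class. Kcnn1 is red and Kcnd3 blue wherever called, while Scn3a and Kcnip1 take both colours.

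Of 34 genes listed as partners of channels, 33 were tested over all cells, and 12 were lower and 3 higher in KO, beside the 24.5% called among all genes. Within the prefix 2 were lower and 3 higher, beside 6.14% of all genes called. In layer V-VI-like cells 11 of 30 were lower and 3 higher, beside 23.2% of all genes called. Within the prefix 9 were lower and 2 higher in these cells, beside 10.3% of all genes. There the Kv1-clustering protein Cntnap2 fell by 1.496, the Kv4 partners Dpp6 by 1.03 and Dpp10 by 1.83, the NALCN complex subunit Unc80 by 0.96 and the sodium channel-binding factor Fgf13 by 0.69, while Stac, which binds L-type channels, rose by 2.27. These 6 partners were also called within the prefix, at −1.22 (Cntnap2), −0.57 (Dpp6), −1.50 (Dpp10), −0.66 (Unc80), −0.58 (Fgf13) and 1.49 (Stac). Kcnd2, the Kv4 pore, fell in the same cells, as given above.

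The 16 members that could not be tested were Cacna1s, Cacna1f, Cacna2d4, Cacng6, Scn4a, Scn7a, Scn10a, Scn4b, Kcna7, Kcna10, Kcng4, Kcnj1, Kcnk15, Kcnk16, Kcnk18 and Kcne2, several of them known from muscle, retina or sensory neurons. Kcna10 and Kcnk16 had 0 UMIs. All but Kcne2 stayed at or under 0.103 CPM in every embryo. Kcne2, a Kv auxiliary subunit of choroid plexus, was at 6.08 CPM in WT replicate 1 and 0.351 in WT replicate 2, the embryos with the most Ttr. Members lower in KO spanned a median of 105 kb of genome, those higher 65.6 kb and those not called 26.4 kb, and their median WT levels were 8.59, 5.37 and 3.02 CPM.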

How the data were processed

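Deposited values were raw counts of UMIs per gene and cell, one 10x 3′ v3 matrix per embryo, which the authors made with Cell Ranger (6.0.2 in the submitters' processing notes, against mm10) with no normalization. Barcodes under 1000 UMIs or above 10% mitochondrial UMIs were dropped. Embryos were integrated by reciprocal PCA and cells clustered in Seurat 5.3.0 (2000 variable genes without the channel genes, 30 principal components, resolution 0.4), and clusters were named from marker lists by a rule that was settled after the marker scores had been seen. Scrublet (scanpy 1.11.5) called too few cells in most libraries to be used, so doublets stayed in, and an alternative removed the highest scores. For each embryo, UMIs were added up over all its cells and, separately, over those of each class. Sums were tested with edgeR 4.0.16 in R 4.3.3 (filterByExpr, TMM, quasi-likelihood test over all 10 embryos) with Benjamini-Hochberg adjustment over all genes tested. Differences between classes were tested with limma 3.58.1 on per-embryo differences of log2 CPM (prior count 2). DESeq2 1.42.0, DESeq2 size factors, no filter, the library prefix, a replicate block, stricter cell filters, resolution 0.8 and leaving out each embryo were the alternatives.

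The members and gene lists were chosen with earlier results of these data known. Named members were the largest called changes of at least 5 CPM with groups that did not overlap (10 each way over all cells, 5 in a class), every call in small comparisons (at most 10), class-leading genes of at least 20 CPM and a fixed list of neuronal channels. Others are named for their place in a class and were chosen after their values were seen. The rule for partners took at most 6 called over all cells. The partners named are instead those of layer V-VI-like cells, also chosen after their values were seen. Levels are CPM after TMM, and within single clusters plain CPM. They come from 3′ tags, so levels of different genes are not compared. Each embryo is 1 replicate. Same-numbered embryos deviated with correlations of −0.70 to 0.126, so the numbers do not pair them. Data were also simulated from the all-cell counts of all 10 embryos, with 17505 genes tested. Of 107 changes of 0.5 on the log2 scale 48.6% were called, and of 89 changes of 1, 74.2%. Far fewer genes were changed than were called in the real data, and no prefix effect was simulated. Matches of gene models and promoters used GENCODE vM21 and RefSeq. Values of a few members are not reported here.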

Additional observations from a re-analysis of the deposited data

Results flagged for a closer look

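Among 61 named members, 2 had a Het embryo that stood apart from the other 3 by Dixon's test, and chance alone sets about 1 in 20 such groups apart. Cacng7 was 32.85 CPM in Het replicate 4 and 9.374 to 11.58 in the others, and that embryo shares its library prefix with WT. Kcnab3 was 2.436 in Het replicate 2 and 2.805 to 2.849 in the others.

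The change from WT to KO differed between layer V-VI-like and layer II-IV-like cells for 30 members by limma's test of the difference. It was more negative in layer V-VI-like cells for Scn3a (−1.21), Scn1a (−0.9956), Scn9a (−0.7139), Kcnk2 (−0.7097), Kcnd2 (−0.3392), Cacna1a (−0.3157) and Kcnk10 (−0.3087). It was more positive there for Kcns3 (2.594), Cacna1i (1.83), Cacna1e (1.706), Cacna2d3 (1.282), Kcnk3 (1.141), Kcnh5 (1.097), Kcnk1 (0.8498), Cacna1g (0.7859), Cacna1d (0.7678), Kcnip1 (0.6885) and Cacng2 (0.6734). Smaller positive differences included those of Kcnma1 (0.5502), Hcn2 (0.5487), Kcnh7 (0.5403), Kcnq5 (0.5325), Kcnj3 (0.5314), Cacna2d1 (0.4615), Cacna1c (0.461), Kcnk12 (0.4607), Kcnmb4 (0.4231) and Cacng4 (0.3225).

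Between layer II-IV-like and interneuron-like cells the change differed for 16 members. Among those more negative in layer II-IV-like cells were Cacna2d3 (−2.018), Cacna1i (−1.881), Kcnj6 (−1.578), Cacna1e (−1.433), Kcnk1 (−1.255), Cacna2d2 (−1.219), Kcnh4 (−1.18), Kcnh7 (−0.8002), Kcnh8 (−0.7275), Kcnip4 (−0.7135), Cacng4 (−0.356) and Cacna1b (−0.3093), and it was more positive there for Kcnip1 (0.9247), Kcnc2 (0.7468) and Kcnq3 (0.5031). Each difference is on the log2 scale.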

How the results depend on the processing

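With prefix as a covariate 31 members were called over all cells, and 57 without it. Of the 57, 27 were called with the covariate. In layer V-VI-like cells 26 were called (48 without it) and in interneuron-like cells 1 (10 without it). For the difference between layer II-IV-like and interneuron-like cells 8 were called (16 without it). For that between layer V-VI-like and layer II-IV-like cells 13 were called (30 without it). Shares over all genes under the covariate are given only for these differences, in the text above. Within one prefix, a comparison added to the class results after the data were seen, the counts were 34 (layer II-IV-like), 30 (layer V-VI-like) and 2 (interneuron-like). Cacng7 turned positive with the covariate, at 0.38 over all cells, 0.45 in layer V-VI-like and 0.18 in interneuron-like cells. The covariate rests on Het replicate 4, the only embryo that separates prefix from genotype.

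Of the 57 members called over all cells, 21 were called under every alternative run, 42 in every fit that left out 1 embryo, and 56 kept their sign under every alternative, Cacng7 being the exception. Leaving out 1 embryo gave 47 to 58 called over all cells, 51 to 58 in layer II-IV-like, 40 to 50 in layer V-VI-like and 3 to 11 in interneuron-like cells. It gave 13 to 28 for KO against the Het embryos of one prefix, 1 to 17 for Het against WT, 12 to 20 and 27 to 31 for the differences between classes. For Het against WT (4 called) DESeq2 called 10, the prefix covariate 1, only the compared groups 1 and the fit without doublets 2. A limit of 5% mitochondrial UMIs gave 5 in interneuron-like cells, and at least 3000 UMIs per cell gave 59 over all cells. Shares over all genes in these fits are not given, so the counts are not read as particular to channel genes.

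The replicate block, whose numbers do not pair the embryos, gave 22 for Het against WT, 57 over all cells, 57, 51 and 10 in layer II-IV-like, layer V-VI-like and interneuron-like cells, 25 within one prefix, and 22 and 34 for the differences between classes. For the replicate block too, shares over all genes are not given. Of single values over all cells for KO against WT, 1179 of those recomputed kept direction and call, 58 lost the call, 20 gained it and 1 turned. The causes of these moves were not tested.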

Other observations

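Kcnj8, the potassium channel pore highest in mural and fibroblast-like cells, was 6.04, 5.66 and 7.65 CPM over all cells in WT, 6.86, 7.18, 8.60 and 3.56 in Het and 5.91, 4.95 and 4.79 in KO, and it was at 570 CPM within mural and fibroblast-like cells of WT embryos. Mural and fibroblast-like cells numbered 20 to 45 per embryo. Kcnk6, another two-pore channel, was at 23.0 CPM in microglia-like cells of WT embryos and at 0.19, 0.13 and 0.16 over all cells in WT.

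Kcnip3 and Kcnq3 were called in different directions in different classes. Kcnip3 rose in layer II-IV-like (0.32), interneuron-like (0.59) and SVZ-like (0.49) cells and fell in radial glia-like cells (−0.69). Kcnq3 rose in layer II-IV-like cells (0.35) and fell in SVZ-like (−0.45), striatal inhibitory-like (−0.58) and radial glia-like cells (−1.13), where oligodendrocyte precursor markers were lower too. Differences against radial glia-like, SVZ-like and striatal inhibitory-like cells were not tested. Between layer II-IV-like and interneuron-like cells the difference passed for Kcnq3 (0.50) and not for Kcnip3.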
